A study of Arabidopsis thaliana with 6 samples.

Results

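The genes described here are the Aux/IAA repressors and the GH3 auxin conjugases of Arabidopsis thaliana, 34 of the 26402 genes listed in the deposited table. They were chosen by locus from the names of their families: 28 Aux/IAA genes, from IAA1 to IAA34, and 6 GH3 genes (GH3.1, GH3.2, GH3.3, GH3.5, GH3.6 and GH3.17). RNA sequencing had been done on whole leaves of wild type plants of the ecotype Columbia (Col-0), which have C3 photosynthesis, in a study of how low CO2 may relate to C4 photosynthesis. Plants grew at 100 ppm CO2 (low CO2, 3 samples) or at 380 ppm CO2 (normal CO2, 3 samples), in each case for 4 weeks with 16 h of light and 8 h of dark at 21 °C and 70% relative humidity. The table gives 1 value per gene and CO2 level in RPKM (reads scaled by gene length and sequencing depth) and no value of a single replicate. No difference below therefore has a replicate check or a test of the CO2 effect.

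Auxin (indole-3-acetic acid, IAA) is a plant growth hormone that acts by removing repressors. Aux/IAA proteins bind ARF transcription factors and, through TOPLESS co-repressors, keep auxin response genes off. When auxin joins an Aux/IAA protein to a receptor of the TIR1/AFB family, the Aux/IAA protein is ubiquitinated and degraded. Many Aux/IAA genes are themselves induced by auxin within minutes, as are several GH3 genes, whose enzymes join IAA to amino acids and so lower the free hormone. Both families thus form negative feedback on auxin. In leaves auxin is known for its part in cell expansion, vein patterning and the response to shade.

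The stretch of an Aux/IAA protein that the receptor grips is the degron of its domain II, and the codons of its core can be read in the coding sequences. The 4 codons GGN, TGG, CCN and CCN were searched in a row and in frame in the RefSeq coding sequence of each gene (assembly TAIR10.1), on the coding strand. Of the 28 Aux/IAA genes 22 held them, each 1 time, and 6 did not (IAA20, IAA30, IAA31, IAA32, IAA33 and IAA34). IAA31 held 3 of the 4 codons in their places at 1 site, and the other genes of the 6 had no such site. The windows below, 5′ to 3′, are shown for 4 related genes (IAA7, IAA14, IAA16, IAA17), for the closely related IAA3 and IAA4, and for IAA6 and IAA19, because genes within each set differed in level or in their difference between CO2 levels. Capitals mark the core codons.
IAA17: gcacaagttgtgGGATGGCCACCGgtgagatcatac
IAA7: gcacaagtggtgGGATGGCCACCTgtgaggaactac
IAA14: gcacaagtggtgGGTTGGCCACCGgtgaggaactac
IAA16: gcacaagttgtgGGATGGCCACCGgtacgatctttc
IAA3: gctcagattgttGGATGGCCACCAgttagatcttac
IAA4: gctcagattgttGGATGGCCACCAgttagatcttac
IAA19: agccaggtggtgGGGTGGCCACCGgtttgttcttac
IAA6: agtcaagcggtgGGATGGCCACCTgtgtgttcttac
The windows of IAA3 and IAA4 are the same in every base. The core begins at codon 85 in IAA17 and in IAA7, at codon 67 in IAA3 and at codon 65 in IAA4.

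Genes with and without the degron codons stood at very different levels in these leaves. The 22 genes with the codons had a median of 38.7 RPKM at low CO2 (0.242 to 473) and of 43.4 RPKM at normal CO2 (0.483 to 282). The 6 genes without them lay between 0 and 0.354 RPKM at low CO2 and between 0 and 0.524 RPKM at normal CO2. Of the genes with the codons, IAA6 at low CO2 and IAA5 at normal CO2 also lay within the range of those without them. No test was made of this difference, since genes of a family are not independent.

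The letters to which ARF proteins bind, the auxin response elements TGTCTC and TGTCGG, were looked for on both strands of the 250 bases before each annotated gene start (RefSeq, TAIR10.1). The motifs differ in their last letters, so that a site counts for 1 of them. TGTCTC stood in the window of 9 of 28 Aux/IAA genes (32.1%) and 3 of 6 GH3 genes (50%), against 10.9% of 27443 protein-coding genes. Of those 9, IAA5, IAA6, IAA20, IAA30, IAA32 and IAA34 had a mean below 1 RPKM over both columns, and IAA1, IAA8 and IAA19 lay above it. TGTCGG stood in 6 Aux/IAA genes (21.4%) and in none of the GH3 genes, against 4.16% of all. At least 1 of the motifs stood in 13 Aux/IAA genes (46.4%) and 3 GH3 genes, against 14.7% of all. These shares were not tested, since genes of a family are not independent. Sites are shown for the GH3 genes that hold one, for IAA19, which holds TGTCTC 3 times, and for IAA6, its closest relative. Each is read on the strand of its gene, with the motif in capitals.
GH3.5: tcttccttattgTGTCTCtactctctactt
GH3.2: gtgggtcccttaTGTCTCcattaactaaca
GH3.3: cctcttgtccccTGTCTCggtctaacgata
IAA19, site 1: gcaccaaacttaTGTCTCtcatgtgaccga
IAA19, site 2: cctcagttgaccTGTCTCtgcccccacttt
IAA19, site 3: ctgcccccacttTGTCTCcccacacaaact
IAA6: ggacccaacataTGTCTCtcatgtgaccga
The first site of IAA19 lies 184 bases before its start and that of IAA6 179 bases before its own, and the 15 bases that follow the motif are the same in both genes. The window of IAA17 holds neither motif, which says only that these letters are not in it. A match is a description of letters and not a site of binding.

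The reads behind the RPKM values could be recovered, at depths of 21887516 reads at low CO2 and 25429325 at normal CO2, and all 34 members gave whole reads. Counted members, those with a mean of at least 1 RPKM over both columns, had between 44 and 7334 reads per column. Of the 34 members 24 were counted, 20 Aux/IAA and 4 GH3 genes. A further 7 lay above 0 but below that mean, and 3 (IAA31, IAA33 and GH3.1) were listed at 0 in both columns. The 3 mesophyll markers were high in both columns. RBCS1A, a Rubisco small subunit gene, stood at 24999 RPKM at low CO2 and 10462 RPKM at normal CO2, a ratio of 2.39 (2.37 to 2.40). RCA (Rubisco activase) stood at 7210 RPKM at low CO2 and 6572 RPKM at normal CO2, and CAB3, a light-harvesting gene, at 1165 RPKM at low CO2 and 1205 RPKM at normal CO2. The 3 root markers summed to 0 RPKM at low CO2 and 0.0250 RPKM at normal CO2, and the 3 shoot meristem markers to 0.0765 RPKM at low CO2 and 0.0329 RPKM at normal CO2. In whole leaves, fewer cells of a type and less RNA per cell cannot be told apart.

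**Figure D1:**
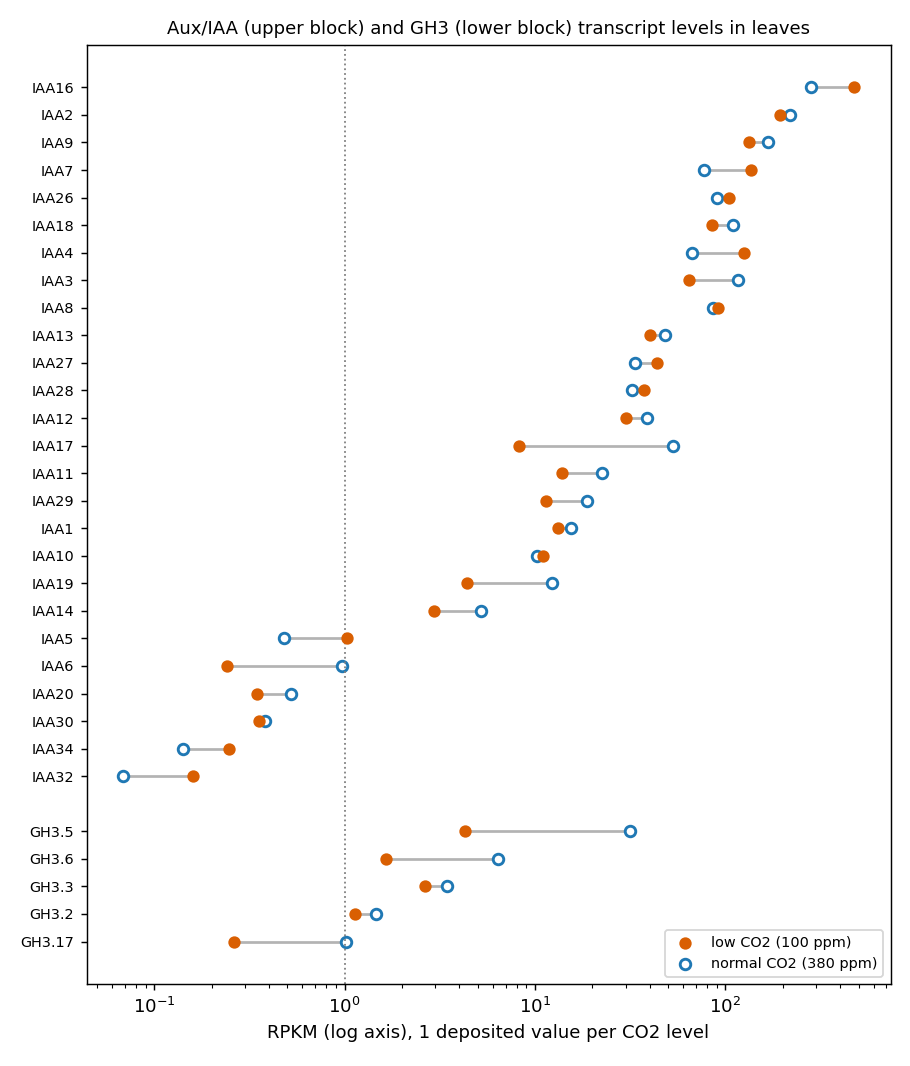
Levels of 31 members in RPKM on a log axis, with 1 filled point for low CO2 and 1 open point for normal CO2 per gene and a dotted line at 1 RPKM; IAA31, IAA33 and GH3.1, listed at 0, are left out. IAA16 is the highest at both CO2 levels, and the widest gaps among genes above 1 RPKM at both levels are those of IAA17 and GH3.5.

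A few Aux/IAA genes held a large share of the family's transcripts at both CO2 levels. IAA16 (AT3G04730), a repressor of the same branch as IAA7, IAA14 and IAA17, stood at 473 RPKM at low CO2 and 282 RPKM at normal CO2, the highest level of the family in each column. IAA2 (AT3G23030), an early auxin-induced gene, stood at 193 and 217 RPKM at low and normal CO2. IAA9 (AT5G65670), whose tomato counterpart is known for its part in leaf shape and fruit set, stood at 133 and 168 RPKM at low and normal CO2. The 3 most abundant genes held 49.4% of the summed RPKM of the family at low CO2 and 44.3% at normal CO2. They were IAA16, IAA2 and IAA7 at low CO2, and IAA16, IAA2 and IAA9 at normal CO2.

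Most Aux/IAA genes differed by less than 2-fold between the CO2 levels, and 2 were lower at low CO2 by more than that. IAA17 (AXR3, AT1G04250), whose stabilising mutation gives auxin-resistant, agravitropic plants, stood at 8.25 RPKM at low CO2 and 53.3 RPKM at normal CO2. It was 6.47-fold lower at low CO2 (95% counting interval 5.36 to 7.87), from 124 reads against 932. IAA19 (MSG2, AT3G15540), known for its part in the bending of hypocotyls, stood at 4.41 RPKM at low CO2 and 12.2 RPKM at normal CO2, 2.78-fold lower (2.05 to 3.81). On the log2(RPKM + 1) scale these were the only ones of 20 counted Aux/IAA genes past 2-fold downward, and none was past 2-fold upward. Among all 16563 counted genes 11.1% were past 2-fold downward and 6.07% upward, so the family's share of lower genes, 10% of its counted members, was near the background. Both genes also had their whole counting interval below 0.5, as did 9.52% of all counted genes with recovered reads. No Aux/IAA gene had it above 2, against 5.05% of all. With a pseudocount of 5 in place of 1, IAA19 came to lie within 2-fold (-0.87 on the log2 scale). The intervals cover counting error only and compare these columns, not the conditions.

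In rank, IAA17 lay near the low end of all genes: 1.57% of counted genes had a log2 ratio as low or lower, against 7.72% for IAA19. At the other end, IAA4 had a log2 ratio at or above that of 92.8% of counted genes, IAA7 of 91.5% and IAA16 of 90.1%. The family thus spread from -2.56 (IAA17) to 0.90 (IAA4) on the log2 scale, with a median of -0.24, beside a median of -0.06 over all counted genes.

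Higher values at low CO2, all within 2-fold on the log2(RPKM + 1) scale, were found for 3 abundant genes in particular. IAA4 (AT5G43700), an early auxin-induced gene, stood at 126 RPKM at low CO2 and 67.0 RPKM at normal CO2, a ratio of 1.88 (1.73 to 2.04). IAA7 (AXR2, AT3G23050), whose stabilised form gives dwarf, auxin-resistant plants, stood at 136 RPKM at low CO2 and 76.7 RPKM at normal CO2, a ratio of 1.77 (1.65 to 1.90). IAA16 had a ratio of 1.68 (1.62 to 1.74), from 7334 reads at low CO2 and 5079 at normal CO2. The counting intervals of these 3 ratios lay wholly above 1. The same held for IAA27, at 43.6 and 33.5 RPKM at low and normal CO2, for IAA26, at 105 RPKM at low CO2 and 89.8 RPKM at normal CO2, and for IAA28, at 37.4 RPKM at low CO2 and 32.4 RPKM at normal CO2. IAA26 and IAA27 encode proteins also known as phytochrome-associated proteins, and IAA28 is known as a repressor of lateral root formation.

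The counting interval lay wholly below 1 for 11 of the 20 genes, wholly above 1 for 6, and spanned 1 for 3. Among all counted genes with recovered reads it lay below 1 for 40.2% and above 1 for 31.9%. Besides IAA17 and IAA19, IAA3 (SHY2, AT1G04240), known for its part in root meristem size, stood at 64.3 RPKM at low CO2 and 116 RPKM at normal CO2, 1.81-fold lower (1.66 to 1.97). IAA14 (SLR, AT4G14550), whose stabilised form stops lateral roots from forming, stood at 2.94 RPKM at low CO2 and 5.17 RPKM at normal CO2, 1.76-fold lower (1.21 to 2.59). Both lay short of 2-fold. IAA29 (AT4G32280), a gene that responds to shade and warmth through PIF factors, stood at 11.5 RPKM at low CO2 and 18.8 RPKM at normal CO2, 1.64-fold lower (1.37 to 1.97). IAA11, at 13.8 and 22.5 RPKM at low and normal CO2, was 1.63-fold lower (1.38 to 1.93).

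The other genes whose interval lay below 1 differed by less than 1.3-fold. IAA12 (BDL, AT1G04550), the repressor that acts with ARF5 in forming the embryonic root, stood at 30.0 RPKM at low CO2 and 38.7 RPKM at normal CO2. Its closest relative IAA13 stood at 39.9 and 48.1 RPKM at low and normal CO2. IAA18 stood at 84.7 and 109.8 RPKM at low and normal CO2, and IAA2 and IAA9 at the levels given above. For IAA1 (13.1 and 15.4 RPKM at low and normal CO2), IAA8 (91.5 and 86.3 RPKM at low and normal CO2) and IAA10 (11.0 and 10.3 RPKM at low and normal CO2) the interval spanned 1, so that no difference was detectable at this depth.

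**Figure D2:**
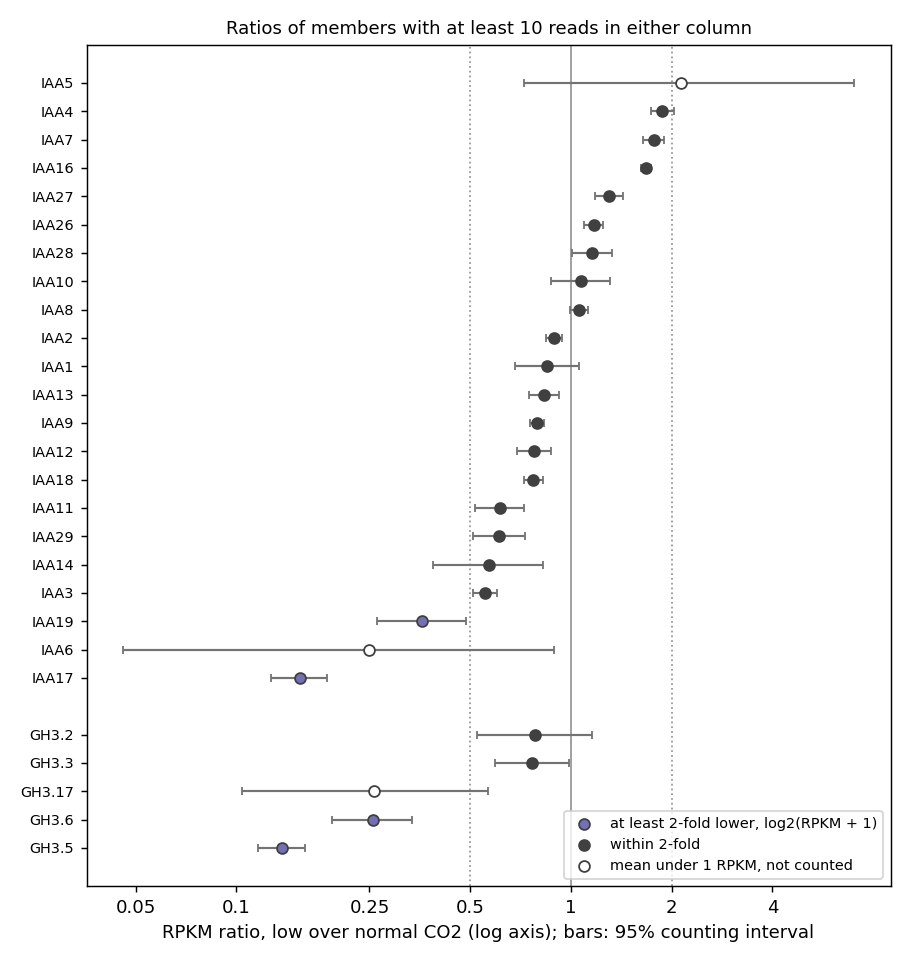
RPKM ratio of low over normal CO2 on a log axis for the 27 members with at least 10 reads in either column, with bars for the 95% counting interval, a line at 1 and dotted lines at 0.5 and 2. IAA17, IAA19, GH3.5 and GH3.6 lie with their whole interval below 0.5, and IAA4, IAA7 and IAA16 have ratios of 1.88, 1.77 and 1.68.

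Close relatives did not always differ in the same direction. IAA3 and IAA4 share 78.9% of the bases of their coding sequences and the same degron window shown above. At low CO2 IAA4 stood 1.95 times as high as IAA3, and at normal CO2 0.577 times as high, so their order turned round. IAA7, IAA14, IAA16 and IAA17 form 1 branch of the family, in which IAA14 is the closest relative of each of the other genes, at 73.1% identity with IAA7, 71.3% with IAA17 and 66.8% with IAA16. Within it IAA7 and IAA16 were higher at low CO2 while IAA14 and IAA17 were lower. IAA16 stood 57.4 times as high as IAA17 at low CO2 and 5.29 times as high at normal CO2. IAA7 stood 16.5 times as high as IAA17 at low CO2 and 1.44 times as high at normal CO2.

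Some pairs stood in nearly the same proportion at both CO2 levels. IAA2 stood 14.7 times as high as IAA1 at low CO2 and 14.1 times as high at normal CO2, at 80.4% identity. IAA13 stood 1.33 times as high as IAA12 at low CO2 and 1.24 times at normal CO2, at 76.1% identity. IAA26 and IAA18, at 77.5% identity, did change places, with IAA26 at 1.24 times IAA18 at low CO2 and 0.818 times at normal CO2. The longest run of bases shared by any pair named in these sentences was 42 (IAA3 and IAA4), and how reads on shared runs were counted is not given in the sources used here.

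Position on the chromosome pairs 6 members as direct neighbours: IAA1 with IAA14, IAA2 with IAA7 and IAA3 with IAA17. Both genes of IAA3 and IAA17 were lower at low CO2, by 1.81-fold and 6.47-fold. Both IAA1 and IAA14 had ratios below 1, at 0.851 (0.682 to 1.06) and 0.568 (0.387 to 0.823). IAA2 and IAA7 went apart, with ratios of 0.889 (0.841 to 0.940) and 1.77. Of all members 9 overlap another annotated gene, 8 of them only on the opposite strand, and the use of strand in counting is not stated. IAA3 is one, overlapped by AT1G04230 at 14.9 RPKM at low CO2 and 17.5 RPKM at normal CO2. IAA4, IAA7, IAA16, IAA17, IAA19 and the GH3 members overlap no other gene.

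Apart from GH3.5 at normal CO2, the GH3 members stood at low levels in these leaves. Both GH3.5 and GH3.6 were lower at low CO2 than at normal CO2. GH3.5 (WES1, AT4G27260), whose enzyme conjugates IAA and can also act on salicylic acid, stood at 4.31 RPKM at low CO2 and 31.5 RPKM at normal CO2. It was 7.32-fold lower at low CO2 (6.25 to 8.62), from 173 reads against 1472. GH3.6 (DFL1, AT5G54510), its closest relative at 84.1% identity, known from a mutant with short hypocotyls, stood at 1.64 RPKM at low CO2 and 6.40 RPKM at normal CO2, a ratio of 0.256 (0.193 to 0.336). Of 4 counted GH3 genes these 2 were past 2-fold downward and none was past 2-fold upward, beside the backgrounds of 11.1% and 6.07% given above. Of all counted genes 1.46% had a log2 ratio as low as GH3.5 or lower, and 6.25% as low as GH3.6 or lower. GH3.6 lay within 2-fold with a pseudocount of 5 (-0.78 on the log2 scale), and GH3.5 did not (-1.97).

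The other GH3 members stood below 4 RPKM in both columns. GH3.3 (AT2G23170), an auxin-induced conjugase, stood at 2.64 RPKM at low CO2 and 3.44 RPKM at normal CO2, a ratio of 0.767 (0.592 to 0.990). GH3.2 (AT4G37390), at 80.1% identity with GH3.3, stood at 1.14 RPKM at low CO2 and 1.46 RPKM at normal CO2, a ratio of 0.780 (0.523 to 1.16). These 2 genes lay within 2-fold and held TGTCTC in their upstream windows, as GH3.5 did. GH3.17 (VAS2, AT1G28130), which conjugates IAA mainly to glutamate, stood at 0.261 RPKM at low CO2 and 1.01 RPKM at normal CO2, from 8 and 36 reads, and was not counted. Its plain RPKM ratio was 0.258 (0.104 to 0.565). GH3.1 was listed at 0 in both columns, where a floor of 3 reads is worth 0.0774 RPKM at low CO2 and 0.0667 RPKM at normal CO2.

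Summed over the members of each family, the 6 GH3 genes were lower at low CO2 and the Aux/IAA genes nearly level. The 6 GH3 genes summed to 9.98 RPKM at low CO2 and 43.8 RPKM at normal CO2, a ratio of 0.228. GH3.5 alone held 43.1% of that sum at low CO2 and 71.9% at normal CO2, and without it the ratio was 0.461. These values leave out the 5 other GH3 family genes that were listed, which summed to 121 RPKM at low CO2 and 155 RPKM at normal CO2. The 28 Aux/IAA genes summed to 1625 RPKM at low CO2 and 1506 RPKM at normal CO2, a ratio of 1.08, which turned to 0.941 without IAA16. The sum and the median of the Aux/IAA genes thus differ in direction. IAA16 held 29.1% of the family's sum at low CO2 and 18.7% at normal CO2.

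**Figure D3:**
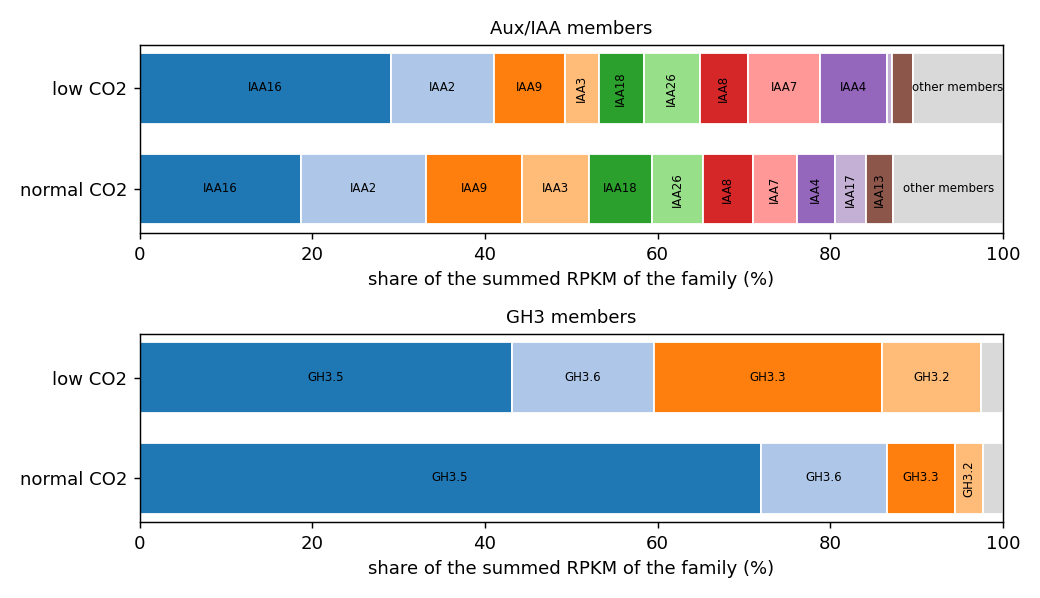
Share of each member in the summed RPKM of the 28 Aux/IAA members or of the 6 GH3 members (%). Low CO2 is drawn above normal CO2 in each panel, and members under 3% in both columns are drawn in grey. IAA16 holds 29.1% at low CO2 and 18.7% at normal CO2, and GH3.5 holds 43.1% at low CO2 and 71.9% at normal CO2.

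Aux/IAA genes at low levels gave few reads and wide intervals. IAA6 (SHY1), the closest relative of IAA19, had 3 reads at low CO2 and 14 at normal CO2, at 0.242 and 0.971 RPKM, a ratio of 0.249 (0.0459 to 0.892). IAA5 had 11 reads at low CO2 and 6 at normal CO2, a ratio of 2.13 (0.722 to 7.01). No difference was detectable for IAA5 at this depth. The genes without degron codons that were listed above 0 had between 1 and 7 reads per column. IAA20 had 4 reads at low CO2 and 7 at normal CO2, and IAA30, which shares 82.0% of its bases with IAA20, had 4 reads at low CO2 and 5 at normal CO2. IAA32 and IAA34, known for their part in the apical hook, had 2 and 3 reads at low CO2 and 1 and 2 at normal CO2. IAA31 and IAA33 were listed at 0 in both columns, where 3 reads are worth 0.289 and 0.267 RPKM at low CO2 and 0.249 and 0.230 RPKM at normal CO2. A value listed at 0 can also be a failed estimate.

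Other steps of auxin metabolism were described from lists chosen by role, with earlier results of these data known. A count set beside the share of all counted genes is therefore a description only. Of 8 counted genes of auxin oxidation, hydrolysis and conjugation to other groups 5 were past 2-fold downward at low CO2 and none upward, with a median log2 ratio of -1.49, beside the 11.1% and 6.07% of all counted genes and their median of -0.06. IAMT1, which methylates IAA, stood at 0.829 RPKM at low CO2 and 11.5 RPKM at normal CO2, 13.9-fold lower (8.94 to 22.7). IAR3, an amidohydrolase that frees IAA from its conjugates and also acts on jasmonate conjugates, stood at 73.6 RPKM at low CO2 and 291 RPKM at normal CO2, 3.95-fold lower (3.77 to 4.14). ILL6, of the same hydrolase family, was 3.14-fold lower (2.88 to 3.44). The other lower genes were the hydrolase gene ILR1, at 7.27 and 23.3 RPKM at low and normal CO2, and DAO1, an IAA oxidase gene, at 5.64 and 16.8 RPKM at low and normal CO2, both named after their values were seen. The other counted genes of the list lay within 2-fold, and are likewise named after their values were seen. The hydrolase genes ILL1 and ILL2 had ratios of 0.952 (0.870 to 1.04) and 0.856 (0.780 to 0.941). UGT74D1, which glucosylates auxin, had a ratio of 1.74 (1.56 to 1.95).

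In auxin synthesis 1 of 7 counted genes was past 2-fold upward and 1 downward, beside 6.07% and 11.1% of all counted genes. The median log2 ratio of the list was 0.41, beside -0.06 over all counted genes. TAR2, a tryptophan aminotransferase, stood at 12.8 RPKM at low CO2 and 3.84 RPKM at normal CO2, 3.32-fold higher (2.71 to 4.09). YUC9, a flavin monooxygenase, stood at 0.398 RPKM at low CO2 and 1.84 RPKM at normal CO2, 4.62-fold lower (2.40 to 9.75), and came to lie within 2-fold under each scaling tried (-0.97 on the log2 scale after median scaling). The other 5 lay within 2-fold on the log2(RPKM + 1) scale and are named after their values were seen. Plain ratios were 2.76 (1.69 to 4.65) for YUC5, 1.55 (1.05 to 2.30) for YUC2 and 1.49 (1.15 to 1.93) for YUC6. They were 0.503 (0.363 to 0.689) for TAA1 and 0.668 (0.382 to 1.14) for YUC8. None of 12 counted transport genes reached 2-fold on the log2(RPKM + 1) scale. PIN4, the most abundant of them on average, was at 94.7 RPKM at low CO2 and 56.0 RPKM at normal CO2. Plain ratios past 2-fold were those of LAX3, at 2.20 (1.54 to 3.19), and PIN6, at 0.452 (0.281 to 0.708), both named after their values were seen.

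The partners of Aux/IAA proteins lay mostly within 2-fold. Of the 6 receptor genes AFB1 was past 2-fold upward and none downward, beside 6.07% and 11.1% of all counted genes. AFB1 stood at 21.4 RPKM at low CO2 and 10.13 RPKM at normal CO2, a ratio of 2.11 (1.88 to 2.38). The other 5 lay within 2-fold. With a pseudocount of 5 AFB1 also lay within 2-fold (0.80 on the log2 scale). Of 15 ARF genes 2 were past 2-fold downward and none upward, a share near the 11.1% of all counted genes past 2-fold downward. ARF11 stood at 3.48 RPKM at low CO2 and 14.8 RPKM at normal CO2, 4.25-fold lower (3.54 to 5.13). ARF18 stood at 6.40 and 15.9 RPKM at low and normal CO2, 2.49-fold lower (2.16 to 2.88), and lay within 2-fold with a pseudocount of 5 (-0.88 on the log2 scale). All 5 co-repressor genes lay within 2-fold, with TPL at 102 RPKM at low CO2 and 87.0 RPKM at normal CO2. Of the auxin-induced transcription factor genes 2 were counted. ATHB2 was past 2-fold downward and none was upward, beside 11.1% and 6.07% of all counted genes. This homeodomain gene, known for its rise in shade, stood at 27.1 RPKM at low CO2 and 239 RPKM at normal CO2, 8.82-fold lower (8.05 to 9.68). The other counted gene, the homeodomain gene HAT2, named after its values were seen, stood at 79.5 RPKM at low CO2 and 54.8 RPKM at normal CO2, a ratio of 1.45 (1.34 to 1.57).

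**Figure D4:**
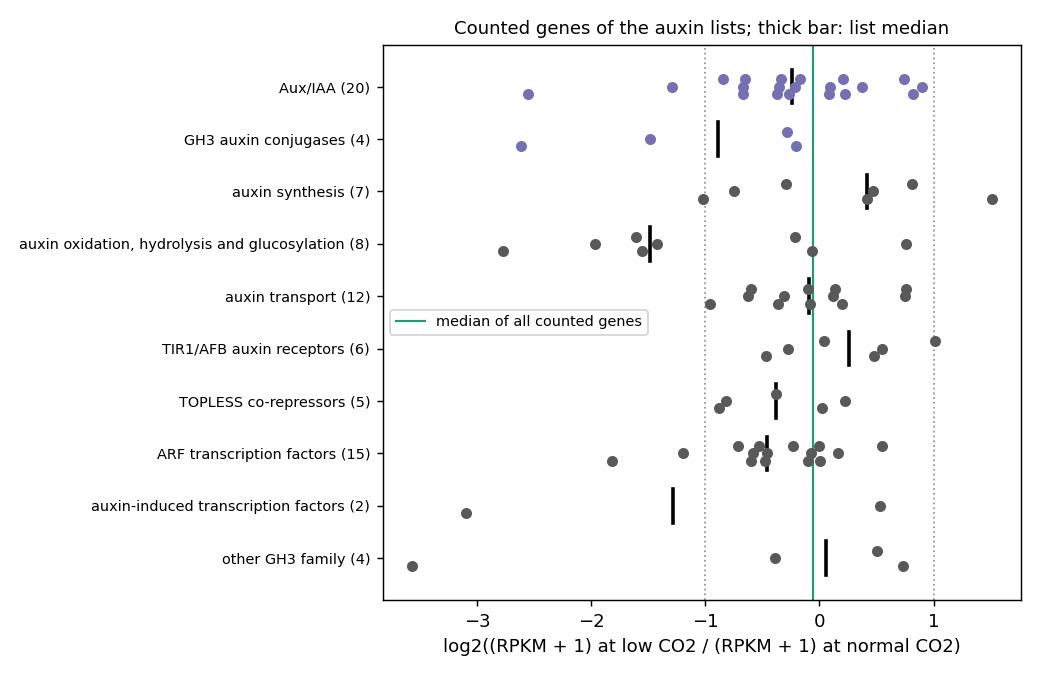
Difference of each counted gene on the log2(RPKM + 1) scale, low over normal CO2, by list, with the number of counted genes in brackets, the list median as a thick bar and the median of all counted genes (-0.06) as a line. IAA17 and GH3.5 lie lowest in their lists at -2.56 and -2.62, and the list of oxidation and hydrolysis has a median of -1.49.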

How the data were processed

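RNA sequencing of whole leaves covered 6 samples, 3 per CO2 level. The authors deposited RPKM values with 1 column per CO2 level and no column of a single sample, so each column was read as a value of its group with neither SD nor n. Per the submitters' processing notes FastQC, TopHat and Cufflinks were used. Versions, genome build, annotation, counting, strand and pooling of replicates are not given in the sources used here. Whether a column pools 3 libraries cannot be read from it.

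Reads were recovered as RPKM × coding length (less the 3 bases of the stop codon) × depth, with RefSeq TAIR10.1 lengths and, where a gene has several, the longest that made both columns whole to within 0.0001 reads. Of 21010 genes above 0, 96.4% did. 1 read on 1 kb is worth 0.0457 RPKM at low CO2 and 0.0393 RPKM at normal CO2. Differences are on the log2 scale of (RPKM + 1), low over normal CO2, which understates the change of low genes, with a size rule of 2-fold for genes of at least 1 RPKM on average, and plain ratios with exact Clopper-Pearson 95% intervals of the recovered reads, for counting error only. The limma test foreseen for single replicates could not be run. The text names all members and, of each other auxin list, up to 3 genes past 2-fold or else the most abundant. Cell type markers and genes said to be named after their values were seen fall outside this rule. Members and lists were chosen with earlier results of these data known. Sequences were read by locus from RefSeq TAIR10.1, and its coordinates are not printed because the authors' build is not stated. Identity is the share of equal bases in a global alignment over the longer coding sequence (Biopython 1.88). The recovery, interval and fold rule were tested on simulated data. Python 3.11.15, SciPy 1.17.1 and pandas 2.3.3 were used.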

Additional observations from a re-analysis of the deposited data

How the results depend on the processing

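Alternatives were a pseudocount of 0.1 or 5, no filter or a mean of at least 5 RPKM, median scaling, quantile normalization, scaling of the recovered reads by a trimmed mean of log ratios (TMM), and a rule that the whole counting interval lie beyond 2-fold. No value of a member past 2-fold changed sign under them. With a pseudocount of 5 the count past 2-fold was 1 for the Aux/IAA genes (IAA17, without IAA19) and 1 for the GH3 genes (GH3.5, without GH3.6), which follows from adding 5 RPKM to low values. With a mean of at least 5 RPKM 1 GH3 gene was left, GH3.5, so that the GH3 median became -2.62 in place of -0.89. The ratio of summed Aux/IAA RPKM, 1.08, was 1.12 after median scaling, 1.12 after quantile normalization, 1.14 after TMM scaling and 0.941 without IAA16. That of the GH3 genes, 0.228, was 0.261 after quantile normalization and 0.461 without GH3.5. Median and TMM scaling divide every low CO2 value by a constant, so the shifts of the sums under them follow from the scaling itself. Why the columns differ in scale was not tested. Quantile normalization moved the median of all counted genes by 0.11 on the log2 scale, to 0.05, where IAA17 was at -2.44 and GH3.5 at -2.48. TMM scaling moved it by 0.07. No paired analysis was possible because the table holds no columns of single replicates, and for the same reason no replicate could be left out. Depth limits IAA5, IAA6, IAA20, IAA30, IAA32, IAA34 and GH3.17.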

Other observations

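GH3 family genes outside the 6 members, from a list chosen by role with earlier results of these data known, went both ways. JAR1, which joins jasmonate to isoleucine, stood at 49.8 RPKM at low CO2 and 65.5 RPKM at normal CO2, a ratio of 0.761 (0.718 to 0.807). GH3.10 (DFL2) stood at 67.2 RPKM at low CO2 and 47.2 RPKM at normal CO2, a ratio of 1.42 (1.34 to 1.51), and was more abundant than any of the 6 GH3 members in both columns. GH3.9 stood at 1.85 RPKM at low CO2 and 0.717 RPKM at normal CO2, a plain ratio of 2.58 (1.68 to 4.04), though within 2-fold on the log2(RPKM + 1) scale. PBS3, which joins glutamate to isochorismate in salicylic acid synthesis, was at 2.54 and 41.1 RPKM at low and normal CO2. It was 16.2-fold lower at low CO2 (13.2 to 20.1). Of the 4 counted genes of this list it was the only one past 2-fold downward, and none was upward. The shares of all counted genes were 11.1% and 6.07%. JAR1, GH3.10 and GH3.9 were named after their values were seen.

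Markers of dividing and guard cells were also read. The 4 markers of dividing cells summed to 4.91 RPKM at low CO2 and 3.24 RPKM at normal CO2, and the 2 guard cell markers to 78.5 RPKM at low CO2 and 55.2 RPKM at normal CO2. Of the dividing cell markers 2 were counted, with ratios of 1.72 (1.03 to 2.92) and 1.62 (1.01 to 2.61). The others had ratios of 1.74 (0.413 to 8.40) and 0.830 (0.330 to 2.01). FAMA and MYB60, the guard cell markers, had ratios of 1.10 (0.991 to 1.22) and 1.66 (1.48 to 1.88). The 3 markers of veins summed to 382 RPKM at low CO2 and 447 RPKM at normal CO2. SUC2 alone made up 374 RPKM of that sum at low CO2 and 440 RPKM at normal CO2, a ratio of 0.851 (0.831 to 0.870). The other vein markers, XCP1 and IRX3, had ratios of 1.31 (1.04 to 1.65) and 0.911 (0.680 to 1.22). The flower gene AG was at 0.786 and 1.92 RPKM at low and normal CO2. Their part in the values of the auxin genes was not tested.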
